A study of Caenorhabditis elegans with 6 samples.

Results

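Glutathione S-transferases join the tripeptide glutathione to reactive compounds such as products of lipid oxidation and many drugs, which makes them easier to export from the cell. The C. elegans genome holds a large family of these enzymes, many of them in tandem gene arrays, and the oxidative stress factor SKN-1 is known to drive a number of them in the intestine. Besides the main gst genes there are omega-class enzymes (gsto genes), which act mainly as thiol transferases, and kappa-class enzymes (gstk genes), which are unlike the others in structure and are found in mitochondria and peroxisomes.

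All genes whose symbol is gst-, gsto- or gstk- followed by a number in the platform annotation were taken, where some probe set belongs to that gene alone. These were 45 of the 17138 genes with such a probe set: 40 gst, 3 gsto and 2 gstk genes. The RefSeq table lists 49 such symbols, and the other 4 were not measured here. For a gene with several of its own, the brightest probe set on average was used. Only gst-40 has a second probe set of its own, and 1 further probe set names gst-10 together with F56A4.3.

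The study compared whole larvae of 2 transgenic strains after a heat shock, with 3 arrays per strain, to find genes that respond to activated Wnt signaling. hs::ΔNTbar-1 animals express a Myc-tagged form of the beta-catenin BAR-1 that lacks its amino terminus, under a heat shock promoter. hs::control animals have the vector without that insert. Both transgene arrays also hold the touch neuron reporter mec-7::GFP and dpy-20(+), which rescues a dpy-20 mutation, and both groups were heat-shocked for 30 min, at 30° in the sample labels and at a higher temperature in the methods. Each group is 1 strain with its own transgene array and there is no group without heat shock, so a response to ΔNTBAR-1 and any other fixed difference between the strains cannot be told apart. The samples were described as biological replicates of young L3 larvae. By the methods the heat shock was given at the L2/L3 molt and animals were collected after a short recovery, so later responses were not measured. RNA came from whole animals, so a change in the amount of a tissue and a change of RNA per cell cannot be told apart either.

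The values are linear Affymetrix signals, a measure of how brightly the probes of a gene hybridized, and they are comparable between arrays for 1 probe set but not between probe sets. The bar-1 signal was 7755, 20991 and 16009 on the hs::ΔNTbar-1 arrays and 586.3, 519.5 and 574.7 on the hs::control arrays, so each array lay on the side of its label. On the arrays 43.1% to 45.6% of all probe sets had a signal under 100, the dim end of the scale. Tests were run on log2(signal + 16), which understates the differences of dim genes, with limma over all 22548 probe sets and Benjamini-Hochberg adjustment. With 3 arrays per group the smallest p that an exact permutation test allows is 0.1.

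No glutathione S-transferase gene passed limma's test at an adjusted p under 0.05, and none differed 2-fold between the groups on this scale. The 45 genes spread around 0: 24 had a higher and 21 a lower mean in hs::ΔNTbar-1 animals, with log2 differences from -0.52 to 0.81 and a median of 0.01, against a median of 0.00 over all genes. Nearest to the threshold were gst-29, gst-38, gst-20 and gst-10, all higher in hs::ΔNTbar-1 animals, by 0.81, 0.68, 0.56 and 0.65 on the log2 scale. On the other side gst-24 had the lowest difference, at -0.52. The enzyme gene most used as a reporter of SKN-1 activity, gst-4, was at -0.09 with a 95% interval of -0.39 to 0.20.

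In limma's test 0 of the 45 genes were called higher and 0 lower, where 0.443% and 0.286% of all genes were. At an unadjusted p of at most 0.05, 7 of the 45 (15.6%) were higher, where 7.25% of all genes were. They were gst-1, gst-5, gst-10, gst-20, gst-29, gst-38 and gst-42. In the other direction 1 of the 45 (2.22%), gst-24, was lower, where 6.69% of all genes were. With 1 array left out the number lower was 3 without hs::ΔNTbar-1 replicate 1 and 1 in each other case. The number higher was then 5 to 8. No share of all genes is given for these settings. The study's criteria combine a 2-fold change of the mean, significance at 0.05 in the methods' test, and 2 or more of the 3 arrays on one side of the control mean. By them 0 of the 45 were higher and 0 lower, against 0.782% and 0.572% of all genes. The methods' test called 0 higher and 0 lower after Benjamini-Hochberg adjustment, where it called 0.0759% and 0.0642% of all genes. Without adjustment it called 9 higher (20%) and 2 lower (4.44%), where it called 7.32% and 6.71% of all genes.

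The groups did not overlap for 14 of the 45 genes. In 11 of them (24.4% of the 45) every hs::ΔNTbar-1 array was above every control array, and in 3 (6.67%) every one was below. Over all genes the shares were 11% above and 10.5% below. The 11 are gst-1, gst-5, gst-7, gst-10, gst-20, gst-29, gst-36, gst-38, gst-41, gst-42 and gsto-1, and the 3 are gst-6, gst-24 and gst-28.

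**Figure D1:**
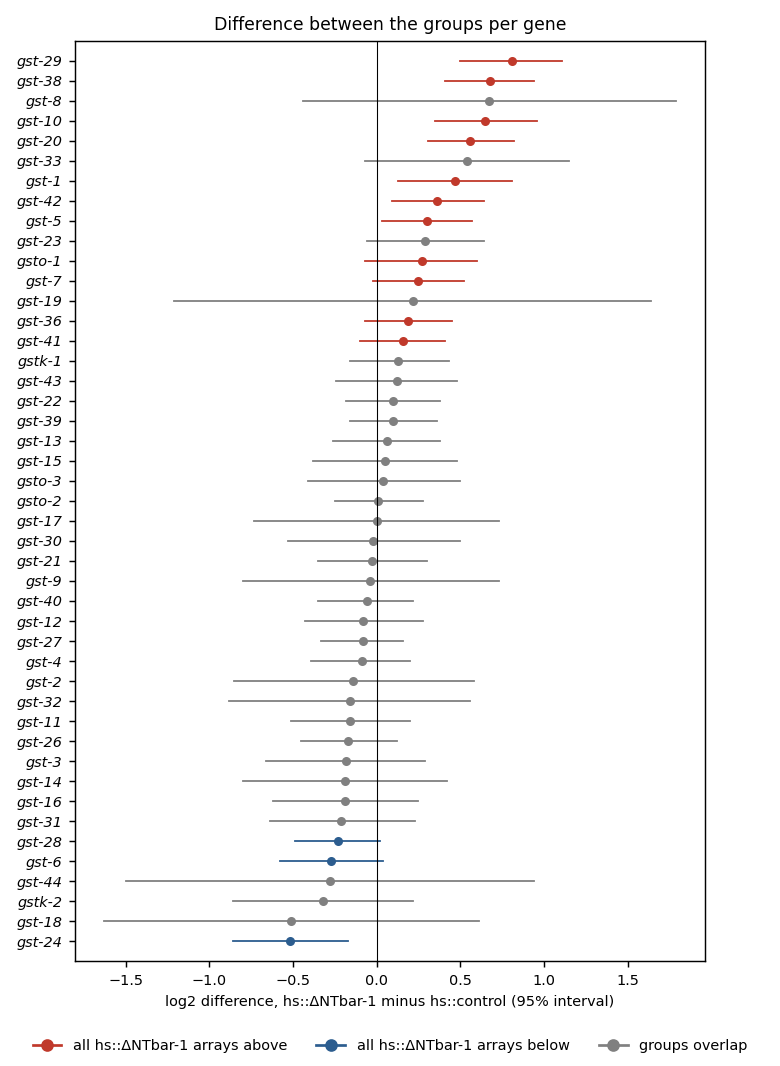
The log2 difference between hs::ΔNTbar-1 and hs::control animals for each of the 45 genes (points), with 95% intervals from limma (lines). Red genes have all 3 hs::ΔNTbar-1 arrays above all 3 hs::control arrays, blue genes have them below, and grey genes overlap. The points run from -0.52 for gst-24 to 0.81 for gst-29.

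The family ranged from probe sets at the bottom of the scale to bright ones. The mean over the 6 arrays was under 100 for 15 of the 45 genes (33.3%), where it was so for 44.8% of all genes. It was over 1000 for 12 (26.7%), where it was so for 14.9% of all genes. Of these 12, 9 were higher and 3 lower in hs::ΔNTbar-1 animals, with a median log2 difference of 0.28, where all genes this bright had a median of -0.02. The division at 1000 was made after the values had been seen, and no test was run on it. The signals of the 45 probe sets added up to between 39590 and 41205 on the hs::ΔNTbar-1 arrays and between 34838 and 35304 on the hs::control arrays. The ratio of means was 1.16, with 47.9% of the sum in the 5 brightest probe sets. Signals are not comparable between probe sets, so this sum follows the bright ones and does not measure the RNA of the family. The largest gaps in mean signal were those of gst-1 (5388 and 3887), gst-10 (3324 and 2105) and gst-20 (3437 and 2323). gst-24 went the other way (1205 and 1728), and the median log2 difference of all 45 genes was 0.01.

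**Figure D2:**
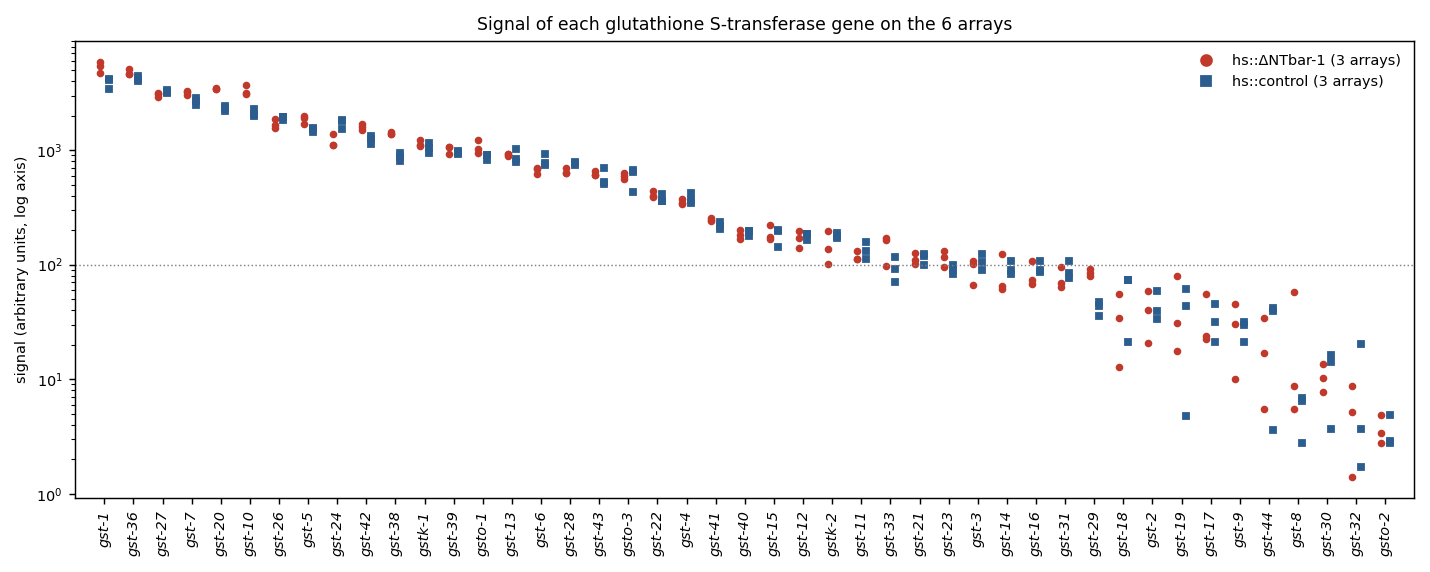
Signal (log axis, arbitrary units) of each of the 45 genes on the 3 hs::ΔNTbar-1 arrays (red circles) and the 3 hs::control arrays (blue squares), in order of mean signal. The dotted line marks a signal of 100. Replicates lie close together for bright genes such as gst-36 and scatter widely at the dim end, as for gst-19, which went from 4.8 to 79.6.

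The pi-class genes gst-1 and gst-10 were both higher in hs::ΔNTbar-1 animals with groups that did not overlap. gst-10 encodes an enzyme that conjugates 4-hydroxynonenal, a toxic product of lipid peroxidation. Its signal was 3722, 3102 and 3148 on the hs::ΔNTbar-1 arrays and 2281, 2066 and 1969 on the hs::control arrays. All hs::ΔNTbar-1 arrays were well above the highest control array. The log2 difference was 0.65 (standard error 0.13, 95% interval 0.35 to 0.96, 1.57-fold), which missed the threshold at an adjusted p of 0.105 in limma. The probe set that gst-10 shares with F56A4.3 read 2291, 2188 and 2074 against 1318, 1313 and 1198, a log2 difference of 0.77 with an adjusted p of 0.0475 in limma, and signal from the 2 genes cannot be told apart there.

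gst-1, which has been studied in dopamine neurons exposed to manganese, gave 5474, 4746 and 5943 in hs::ΔNTbar-1 animals and 4057, 3412 and 4190 in hs::control animals. The lowest hs::ΔNTbar-1 array was 4746 and the highest control array 4190. The log2 difference was 0.47 (standard error 0.14, 95% interval 0.13 to 0.81, adjusted p = 0.24 in limma).

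gst-38 and gst-20 had tight hs::ΔNTbar-1 replicates and differences of about the same size. The signal of gst-38 was 1394, 1435 and 1378 in hs::ΔNTbar-1 animals and 808.6, 866.6 and 942.1 in hs::control animals, a log2 difference of 0.68 (standard error 0.11, 95% interval 0.41 to 0.94, 1.6-fold, adjusted p = 0.0643 in limma). The signal of gst-20 was 3464, 3443 and 3404 against 2340, 2452 and 2176, a log2 difference of 0.56 (standard error 0.10, 95% interval 0.31 to 0.82, 1.48-fold, adjusted p = 0.0911). For both genes the gap between the groups was larger than the range within either of them. The probe set of gst-20 is of a type that can bind several transcripts, as it is for 8 of the 45 genes.

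Whether these genes passed depended on the settings of the test. gst-38, gst-10 and gst-20 passed limma's test when dim probe sets were left out (adjusted p = 0.011, 0.0236 and 0.0201), with a pseudocount of 64 (0.0178, 0.0351 and 0.0254) and when the variance was modeled with a trend and robustly (0.00322, 0.00548 and 0.00348). With that model gst-1 (0.0418) and gst-24 (0.039) passed as well. It thus called 4 of the 45 genes higher (8.89%) and 1 lower (2.22%), against 2.12% and 1.81% of all genes.

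The gene with the largest difference, gst-29, is dim and was picked out after its values were seen. Its signal was 80, 83.9 and 92.2 on the hs::ΔNTbar-1 arrays and 43.4, 35.4 and 47.6 on the hs::control arrays. Its 6 values were all under 100, and the groups were apart by more than the range within either. The log2 difference was 0.81 (standard error 0.13, 95% interval 0.50 to 1.11, adjusted p = 0.0618 in limma), and the ratio of mean signals without the pseudocount was 2.03. With a pseudocount of 64 its log2 difference was 0.49 and its adjusted p 0.0445. With a pseudocount of 1 it met the study's criteria.

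**Figure D3:**
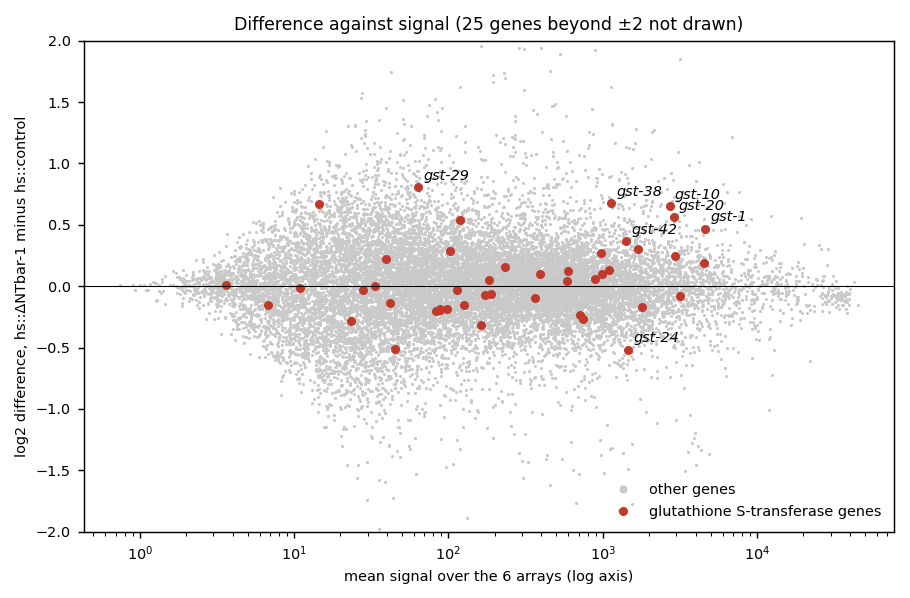
The log2 difference between the groups (vertical axis) against the mean signal over the 6 arrays (log axis) for the glutathione S-transferase genes (red) and all other genes (grey), each by 1 probe set. Genes beyond the vertical limits are not drawn. gst-38, gst-10, gst-20 and gst-1 stand above most genes of their brightness, and gst-24, at -0.52, stands below most of them.

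gst-24, a gene of the same tandem array as gst-20, read 1119, 1386 and 1112 in hs::ΔNTbar-1 animals and 1847, 1812 and 1525 in hs::control animals. All 3 hs::ΔNTbar-1 arrays were below the lowest control array. The log2 difference was -0.52 (standard error 0.14, 95% interval -0.86 to -0.17, adjusted p = 0.209 in limma).

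gst-6 and gst-28 were the other genes with all hs::ΔNTbar-1 arrays below the control arrays, by smaller amounts. gst-6 was at 700.2, 691.3 and 620.4 against 769.1, 925.2 and 747.8 (log2 difference -0.27, standard error 0.13, adjusted p = 0.439 in limma). gst-28 was at 699.3, 630.2 and 629.4 against 745.8, 771.6 and 788.2 (log2 difference -0.23, standard error 0.11, adjusted p = 0.417).

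The SKN-1 reporter gene gst-4, whose overexpression raises resistance to oxidative stress, had overlapping groups. It read 377.2, 342.3 and 341.9 in hs::ΔNTbar-1 animals and 370.4, 343.9 and 424 in hs::control animals (log2 difference -0.09, standard error 0.12, adjusted p = 0.803 in limma). Its neighbours gst-2 and gst-3 are dim, at mean signals of 42 and 98.7, and were at -0.14 and -0.18.

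gst-42 encodes the zeta-class enzyme maleylacetoacetate isomerase, which acts near the end of tyrosine breakdown rather than in detoxification. Its signal was 1596, 1696 and 1514 in hs::ΔNTbar-1 animals and 1251, 1331 and 1142 in hs::control animals. The groups did not overlap, and the log2 difference was 0.36 (standard error 0.11, 95% interval 0.09 to 0.64, adjusted p = 0.251 in limma). The step after it is carried out by fumarylacetoacetase, the product of fah-1, which read 2716, 2678 and 2562 against 1785, 2053 and 1915 (log2 difference 0.47, standard error 0.11, adjusted p = 0.155). Earlier in the pathway hpd-1, of the hydroxyphenylpyruvate dioxygenase, was at 3091, 2708 and 2598 against 1952, 2304 and 1941 (0.44, standard error 0.13, adjusted p = 0.234). The homogentisate dioxygenase gene hgo-1 (0.13) and the tyrosine aminotransferase gene tatn-1 (-0.01) had overlapping groups. None of the 4 measured partners of gst-42 passed the test. Of the 4, 2 had groups that did not overlap, both with the hs::ΔNTbar-1 arrays above, as 11% of all genes had. The partners were listed with earlier results of these data known, and no test of the pathway was run.

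**Figure D4:**
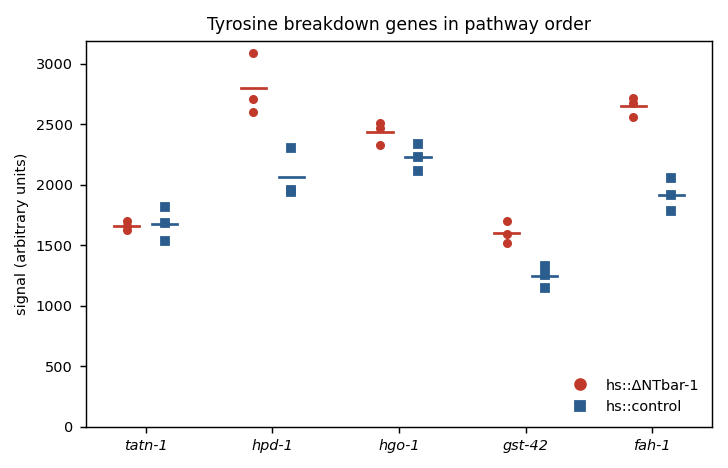
Signal (arbitrary units) of gst-42 and 4 other tyrosine breakdown genes in the order of the pathway, on the 3 hs::ΔNTbar-1 arrays (red circles) and the 3 hs::control arrays (blue squares), with group means as bars. The groups are apart for hpd-1, gst-42 and fah-1 and overlap for tatn-1 and hgo-1. Levels can be compared within a gene and not between genes.

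Of the 3 omega-class genes, gsto-1, which protects worms from oxidative stress, had all hs::ΔNTbar-1 arrays above the control arrays. It read 948.4, 1233 and 1021 against 813.8, 912.9 and 914.6 (log2 difference 0.27, standard error 0.14, 95% interval -0.07 to 0.60, adjusted p = 0.468 in limma). gsto-3 was at 0.04 with overlapping groups, and gsto-2 was at the bottom of the scale, between 2.8 and 4.9 on all 6 arrays. The kappa-class gene gstk-1 read 1103, 1093 and 1238 against 950, 1144 and 1038 (log2 difference 0.13, standard error 0.12, adjusted p = 0.699). gstk-2 was more variable, at 198.7, 102.1 and 136.6 in hs::ΔNTbar-1 animals against 176.8, 172.5 and 189.9 (-0.32, standard error 0.22, adjusted p = 0.603), and its replicate 1 lay above all control arrays while the other 2 lay below them.

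The remaining genes with groups apart had small differences. gst-5 read 1989, 1703 and 1919 in hs::ΔNTbar-1 animals against 1454, 1558 and 1527 (log2 difference 0.30, standard error 0.11, adjusted p = 0.326 in limma). gst-7 read 3197, 3046 and 3280 against 2712, 2455 and 2848 (0.25, standard error 0.11, adjusted p = 0.407). gst-36 read 4631, 4653 and 5148 against 4025, 4420 and 4211 (0.19, standard error 0.11, adjusted p = 0.515). All 3 genes had the hs::ΔNTbar-1 arrays above the control arrays, as did gst-41, which read 241.3, 247.6 and 253.1 against 205.7, 236.5 and 219.8 (0.16).

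Among the bright genes, 3 had overlapping groups, namely gstk-1, gst-27 and gst-26. gst-27 read 3171, 3072 and 2936 in hs::ΔNTbar-1 animals against 3248, 3324 and 3143 (log2 difference -0.08, 95% interval -0.33 to 0.16). gst-26 read 1886, 1668 and 1551 against 1951, 1939 and 1833 (-0.17, 95% interval -0.45 to 0.12). In gst-26, hs::ΔNTbar-1 replicate 1 alone reached the level of the control arrays. gst-33 was at 165.4, 97.4 and 171.3 against 92.3, 70.7 and 116.7, and gst-23 at 131.6, 94.8 and 117.6 against 82.8, 89.6 and 98.5. Their differences of 0.54 (adjusted p = 0.425 in limma) and 0.29 (adjusted p = 0.456) came with groups that overlapped through hs::ΔNTbar-1 replicate 2. gst-11 was at 111, 131.4 and 112.2 against 113, 132.8 and 156.9 (-0.16, adjusted p = 0.708).

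Among the other genes with a mean signal of at least 100, gst-12, gst-13, gst-15, gst-21, gst-22, gst-39, gst-40 and gst-43 lay between -0.08 and 0.12 on the log2 scale and had overlapping groups. The second probe set of gst-40 gave -0.04, where the first gave -0.06. The 95% interval of the difference lay within a 2-fold change in both directions for 39 of the 45 genes. The exceptions were the dim genes gst-8, gst-18, gst-19 and gst-44, together with gst-29 and gst-33. gst-8 read 8.8, 5.5 and 57.3 in hs::ΔNTbar-1 animals and 6.8, 2.8 and 6.5 in hs::control animals, so its difference of 0.67 (adjusted p = 0.592 in limma) came from hs::ΔNTbar-1 replicate 3. gst-18, gst-44 and gst-19 were at -0.51, -0.28 and 0.22, with standard errors of 0.46, 0.50 and 0.59. The other dim genes, gst-9, gst-14, gst-16, gst-17, gst-30, gst-31 and gst-32, lay between -0.21 and 0.00.

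Many of these genes stand next to each other. By gene order in the RefSeq table, 22 of the 45 measured genes are in 5 runs of adjacent glutathione S-transferase genes, the longest with 9 members. Of 17 adjacent pairs with both genes measured, 9 had differences of the same sign. The run of gst-3, gst-2 and gst-4 had 1 sign throughout, at -0.18, -0.14 and -0.09 with overlapping groups, and the other runs with over 1 measured gene had both signs. In the run of 9, gst-20 at 0.56 is followed by gst-24 at -0.52, and the other 7 genes had overlapping groups. In the run gst-26, gst-27, gst-28, gst-29, gst-39 and gst-31, gst-29 at 0.81 stands between gst-28 at -0.23 and gst-39 at 0.10. In the run of gst-6, gst-7 and gst-8, gst-6 at -0.27 is followed by gst-7 at 0.25. Of the genes with groups furthest apart, gst-38, gst-10, gst-1 and gst-42 have no glutathione S-transferase gene as a direct neighbour.

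**Figure D5:**
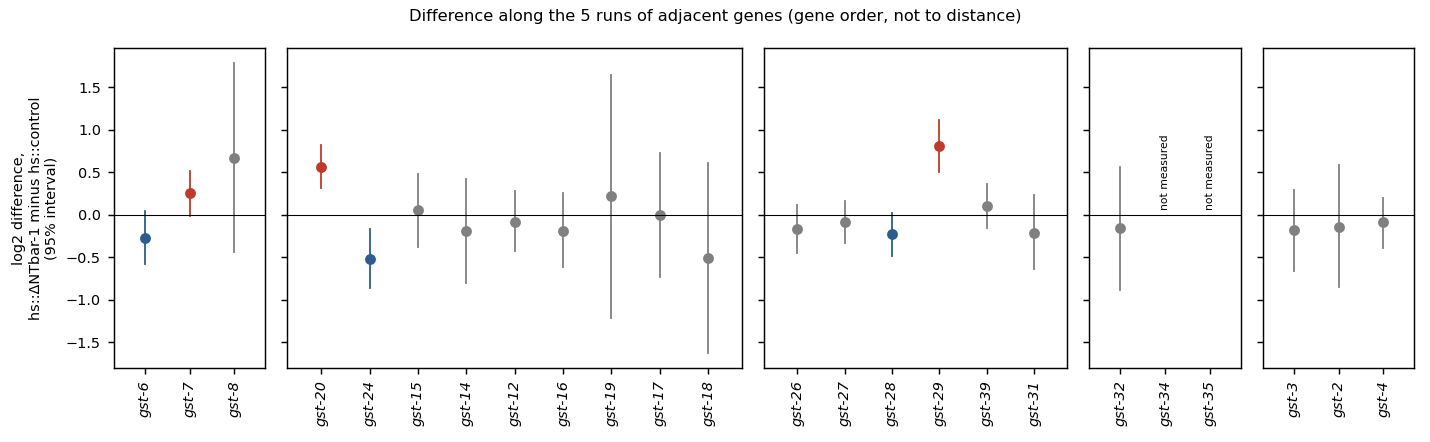
Log2 difference between the groups (points) with 95% intervals (lines) for the genes of the 5 runs of adjacent glutathione S-transferase genes, in gene order and not to distance. Red marks genes with all hs::ΔNTbar-1 arrays above the control arrays, blue those with all below, and grey those that overlap. gst-20 and gst-24, next to each other, lie at 0.56 and -0.52.

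The genes around the enzymes were measured from fixed lists, which were put together with earlier results of these data known. Of 20 measured genes for glutathione synthesis, its recycling and the glutaredoxin and thioredoxin systems, 0 passed limma's test in either direction. At an unadjusted p of at most 0.05, 1 was higher and 2 lower, where 7.25% and 6.69% of all genes were. The list's median log2 difference was -0.03. gpx-5, of a glutathione peroxidase, was at 902.1, 943.5 and 994.7 in hs::ΔNTbar-1 animals against 1214, 1267 and 1506 (-0.48, adjusted p = 0.191). The thioredoxin reductase gene trxr-1 was at 728.6, 681.6 and 793.7 against 1007, 875.8 and 971.2 (-0.37, adjusted p = 0.261). In both genes all hs::ΔNTbar-1 arrays were below the control arrays. Another 2 genes of the list had all of them above, gsr-1 (0.33, adjusted p = 0.355 in limma) and gpx-1 (0.11, adjusted p = 0.701). Over all genes 11% were above and 10.5% below. gcs-1, of the rate-limiting enzyme of glutathione synthesis and another standard SKN-1 target, was at 0.16 (adjusted p = 0.649).

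Of 14 measured genes with glutathione S-transferase related sequence or function outside these family names, 1 passed. It was cdr-4, of the cadmium-responsive cdr family, whose products resemble glutathione S-transferases. Its signal was 3023, 2891 and 2958 in hs::ΔNTbar-1 animals and 1262, 1100 and 1331 in hs::control animals (log2 difference 1.26, standard error 0.12, adjusted p = 0.0135 in limma). The study lists cdr-4 among the genes that it chose on these arrays, so this is no independent evidence. The next in order of p was exc-4, of a chloride channel related to glutathione S-transferases, at 114.8, 109.3 and 110.9 against 136.7, 160.8 and 171.7 (-0.43, adjusted p = 0.211). The median of the list was -0.02.

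Of 9 pumps of the mrp family and hmt-1, which export conjugates, 0 passed limma's test, 0 had an unadjusted p of at most 0.05, and the median was -0.17. The pair with the smallest p were mrp-4, at 829.9, 825.5 and 910.3 against 1014, 1134 and 939.2 (-0.26, adjusted p = 0.422), and hmt-1 (-0.29, adjusted p = 0.454). Of 13 genes of the SKN-1 pathway and its regulators 0 passed limma's test, and the median was 0.03. At an unadjusted p of at most 0.05, 1 was higher and 1 lower, where 7.25% and 6.69% of all genes were. skn-1 itself read 993.9, 1067 and 1310 against 1060, 954.7 and 929.7 (0.18, adjusted p = 0.637). elt-3, a hypodermal GATA factor that works with SKN-1, read 1046, 1130 and 1132 against 1487, 1697 and 1713 (-0.56, adjusted p = 0.116), and mxl-2, of a Max-like transcription factor, was at 0.40 (adjusted p = 0.291).

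Of 12 oxidative stress enzymes outside glutathione metabolism 0 passed limma's test in either direction, and the median was 0.16. At an unadjusted p of at most 0.05, 2 were higher and 0 lower, where 7.25% and 6.69% of all genes were. alh-5, of an aldehyde dehydrogenase, read 532, 517.8 and 503.7 in hs::ΔNTbar-1 animals and 338.8, 267.3 and 306.6 in hs::control animals (log2 difference 0.74, adjusted p = 0.0675). sod-3, of a mitochondrial superoxide dismutase and a common marker of DAF-16 activity, read 244.8, 257.8 and 238.2 against 104.9, 175 and 159.4 (0.72, adjusted p = 0.19). The groups of both genes were apart.

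Levels of heat shock genes and tissue markers were set beside these values. The sums given for them follow the bright probe sets of each list, since signals are not comparable between probe sets. The summed signal of 7 heat shock genes was 65944 to 71705 on the hs::ΔNTbar-1 arrays and 53073 to 59238 on the hs::control arrays, with 0 of 7 past limma's test. Only the ER chaperone gene hsp-4 had all hs::ΔNTbar-1 arrays above, and 0 of the 7 had all below. Its log2 difference was 1.22 (adjusted p = 0.0718 in limma), with mean signals of 9611 and 4170. hsp-16.41 was at 0.57 (adjusted p = 0.419) and hsp-16.2 at 0.72 (adjusted p = 0.537), with overlapping groups. hsp-1, hsp-3 and hsp-60 were at 0.04, 0.09 and -0.02. The inducible gene hsp-70 was high on 1 array of each group, at 134.3, 1546 and 268.8 in hs::ΔNTbar-1 animals and 1384, 98.5 and 103.8 in hs::control animals. The summed signal of 14 intestine markers overlapped between the groups (79625 to 90833 against 88836 to 89403). Of the 14, 2 had all hs::ΔNTbar-1 arrays above and 3 all below, with a median of -0.10. That of 9 hypodermis markers was higher on the hs::ΔNTbar-1 arrays (42203 to 46524 against 35627 to 39142). Most of that gap came from the bright collagen gene sqt-3, with mean signals of 31937 and 25932, and rol-6, with 4025 and 2685. Of the 9, 3 had all hs::ΔNTbar-1 arrays above and 2, elt-3 (-0.56) and ajm-1 (-0.33), had all below, with a median log2 difference of 0.08. The sum of 10 body wall muscle markers overlapped (135502 to 148315 against 139164 to 145618), with 1 gene all above, 1 all below and a median of -0.03. The sums of 10 neuron markers (24614 to 26997 against 28454 to 29308) and 8 pharynx markers (19772 to 21888 against 24541 to 26549) were lower on the hs::ΔNTbar-1 arrays. Of the neuron markers, 2 had all hs::ΔNTbar-1 arrays below and 0 all above, with a median of -0.15. The 2 were egl-3 (-0.18) and mec-7 (-0.68), and both transgene arrays hold mec-7::GFP. Of the pharynx markers, 3 had all below and 0 all above, with a median of -0.16. The 3 were tnt-4 (-0.48), tni-4 (-0.44) and tnc-2 (-0.42). Over all genes 11% were above and 10.5% below. The sum of 15 germ line markers overlapped (5178 to 5715 against 4821 to 5335). Of these, 3 had all hs::ΔNTbar-1 arrays above and 0 all below, with a median of 0.13. The 3 were puf-11 (0.73), rme-2 (0.19) and gld-1 (0.16). No marker passed limma's test, none of the markers read 0 on any array, and the part of heat shock response or tissue makeup in the differences of the glutathione S-transferase genes was not tested.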

How the data were processed

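The authors deposited 1 table of linear signal intensity for 22625 probe sets on 6 Affymetrix C. elegans arrays. The methods give MAS 5 and RMA in Partek, and the submitters' processing notes list MAS5 and Partek. Because the deposited intensity is linear with a trimmed mean of 500.2 on every array, it was taken to be MAS 5 signal scaled per array. No scanner file was used. At most 0.297% of the values coincided between any 2 arrays. The 77 control probe sets were left out. Groups came from the sample labels. Whether the replicates came from separate cultures rests on the paper's description, and p-values measure only the spread between these samples.

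log2(signal + 16) was compared with limma 3.58.1 in R 4.3.3 (lmFit and eBayes), two-sided, without further normalization, filter or replicate block, adjusted over all 22548 probe sets. The step was tested on simulated arrays. All 45 genes matched RefSeq (assembly WBcel235) by identifier. That table gave symbols and gene order, and no coordinates are given because the files name no build.

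The members, lists and rules were chosen with earlier results of these data known. Signals per array are given for the 8 largest differences per direction at a mean signal of at least 100, the 5 brightest probe sets, 6 genes of known role and, in the lists, genes past the test or else the pair with the smallest p. gst-29, gst-8, gst-41 and other genes given per array beside these were picked with their values in view. A promoter motif search was planned and not run, since no sequence was used here. The alternatives tried included quantile normalization, centring, leaving out dim probe sets under the 40th percentile or types that can bind several transcripts, pseudocounts of 1 and 64, a variance model with a trend and robust estimation, a replicate block, each array left out, the methods' test (analysis of variance) and averaging the probe sets of a gene.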

Additional observations from a re-analysis of the deposited data

How the results depend on the processing

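The 21 genes given by the rule or, for gst-29, as the largest difference kept the sign of their difference under all alternatives in which they were fitted. Of 331 values under alternatives, 319 stayed on the same side of the threshold and 12 passed it: those of gst-38, gst-10, gst-20, gst-1 and gst-24 given above, and gst-29 with a pseudocount of 64. In limma, 3 genes were called higher without dim probe sets, where 34 of the 45 could be fitted and fewer probe sets were tested. With a pseudocount of 64, 4 were called higher, and 4 under the trended and robust model of the variance, which also called 1 lower. Over all probe sets and both directions these settings called 635, 389 and 833. Shares of all genes per direction are given only for the trended and robust model, above. The cause was not tested. At an unadjusted p of at most 0.05 the lower genes were 2 without dim probe sets, 3 with a trended and robust model, 2 with the replicate number as a block, 3 with a pseudocount of 64 and 2 in the methods' test. With 1 array left out they were 1 to 3. The higher genes, 7 in the main setting, were 8, 10, 7, 8 and 9 in the same 5 settings. With 1 array left out they were 5 to 8. In the methods' test 7.32% of all genes were higher and 6.71% lower. No such share is given for the other settings, so their counts have no background beside them. With a pseudocount of 1, 1 gene met the study's criteria, which were not recomputed for the variance models and the block. The number of genes with a positive difference was 20 to 29 with 1 array left out, 25 after quantile normalization and 22 after centring.

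Same-numbered arrays had correlations of their deviations of 0.066, -0.021 and 0.065, where differently numbered arrays had -0.091 to 0.026. Neither these small values nor the labels tell whether equal numbers share a batch. With the replicate number as a block 0 of the 45 genes were called in either direction, as without it, and over all probe sets the calls went from 152 to 2. All probe sets called were 635 without dim probe sets, 833 with the trended and robust model, 389 and 89 with pseudocounts of 64 and 1, 89 without types that can bind several transcripts, 30 in the methods' test and 23 to 44 with 1 array left out. 3 arrays per group limit the precision, and for genes under a signal of 100 the standard error reached 0.59.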
